A study of Mus musculus with 6 samples.

Results

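The genes described here are those of the collagens, taken as every gene whose symbol is Col, a number, the letter a and a number. The array's annotation named 42 of them among 18193 genes: 11 fibrillar collagens, 6 chains of basement membrane collagen (type IV) and 25 collagens of other types. They were measured in melan-a, an immortal melanocyte (pigment cell) line derived from normal epidermal melanoblasts of inbred C57BL/6 mouse embryos. All 6 cultures belong to a study in which the cells were given delta-BRAF-ER, a construct of the growth-signalling kinase BRAF in its activated version, which is induced by adding tamoxifen. The groups, each with 1 array, were BRAF activated with added ZEB2, BRAF activated with added SNAIL2, BRAF activated with added TWIST1, BRAF activated with added ZEB1, BRAF activated with no added factor (BRAF-on) and BRAF not activated (BRAF-off). The 4 added proteins are embryonic transcription factors, and the study asked how each bears on genes that respond to BRAF. The promoter that drives the added factors, the number of clones and the time after tamoxifen are not given in the sources used here.

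Collagens are extracellular proteins whose chains wind around each other into a helix, so a chain is secreted only together with its partner chains. Fibrillar collagens (types I, II, III, V, XI, XXIV and XXVII) pack into the fibres of dermis, tendon and cartilage, type IV builds the sheet-like net of basement membranes, on which melanocytes of the skin sit, and the other types bind to fibres, form fine filaments or anchor one layer to the next. In skin the fibres are made chiefly by fibroblasts. Chains need prolyl and lysyl hydroxylases in the endoplasmic reticulum, trimming of their ends outside the cell and crosslinking by lysyl oxidases.

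Since each group has a single array, the spread between replicates is unknown, no test was run and no p-value is given. Every ratio sets 1 array beside another, and the number of arrays limits the precision. The deposited signals have the same trimmed mean on each array. A gene was compared where at least 1 of the 2 arrays reached a floor of 63.7 signal units, the median of all values, and the terms higher and lower, in counts of genes, stand for a difference of 2-fold or more, with no test behind it. Values under the floor were raised to it, so a ratio with 1 array under the floor is a lower bound. Signals of different probe sets are not comparable as levels, so each gene is compared only with itself. Over the 6 arrays, 10611 to 11269 genes were at or above the floor. Ratios of 3' to 5' signal ran from 0.792 to 0.839 for Gapdh and from 1.36 to 1.54 for Actb. Spiked-in poly-A controls were 2.55-fold higher on the array labelled SNAIL2 than on BRAF-on (median of 24 probe sets, all higher), and this ratio was 0.880 to 1.42 for the other added factors. The introduced factors could not be checked by their own probe sets: Snai2 was at 3142 on the array labelled SNAIL2 against 4175 in BRAF-on, Twist1 at 278 on that labelled TWIST1 against 338, Zeb1 at 109 on that labelled ZEB1 against 134 and Zeb2 at 1132 on that labelled ZEB2 against 806. Arrays are therefore named by their labels. Melanocyte identity was checked on 10 markers, which all reached the floor on 5 of the arrays; on the array labelled TWIST1 only Mitf and Sox10 did. Over the 6 arrays the summed signal of 10 keratinocyte markers ran from 392 to 651, that of 7 endothelial markers from 141 to 398, that of 7 macrophage markers from 275 to 706 and that of 5 Schwann cell markers from 1435 in BRAF-on to 3487 with ZEB1. At the floor were 1 to 2 of the keratinocyte markers (Krt10 on all 6 arrays, Krt5 on some), 0 to 3 of the endothelial ones (among them Cdh5 and Kdr, at 189 and 95.9 with ZEB1) and 2 of the macrophage ones (Cd68 and Csf1r, on all 6 arrays). Cd68 was highest with ZEB1, at 466 against 128 in BRAF-on. Of the 5 Schwann cell markers, all 5 were at the floor with ZEB2 and 4 on each other array. Among them Cnp was at 2225 with ZEB1 against 634 in BRAF-on. Each of these sums is weighted to its brightest probe sets.

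Of the 42 collagen genes, 19 reached the floor on all 6 arrays, 11 on some and 12 on none. Those under the floor throughout were the fibrillar Col24a1, the type IV chain Col4a6, and Col6a4, Col6a5, Col9a2, Col13a1, Col17a1, Col19a1, Col22a1, Col23a1, Col25a1 and Col26a1. All 4 transmembrane collagens of the annotation (Col13a1, Col17a1, Col23a1 and Col25a1) are among these 12. In the 5 comparisons together 14 collagen genes were at least 2-fold apart somewhere, a count that was not made over all genes. The shares of all genes are given for each comparison below. Of the 19 measured on all arrays, 11 were highest on the array labelled TWIST1, 4 on that labelled SNAIL2, 2 on that labelled ZEB1, 1 on that labelled ZEB2, 1 in BRAF-on and none in BRAF-off. The highest array was not tallied over all genes, so how unusual this spread is cannot be told.

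**Figure D1:**
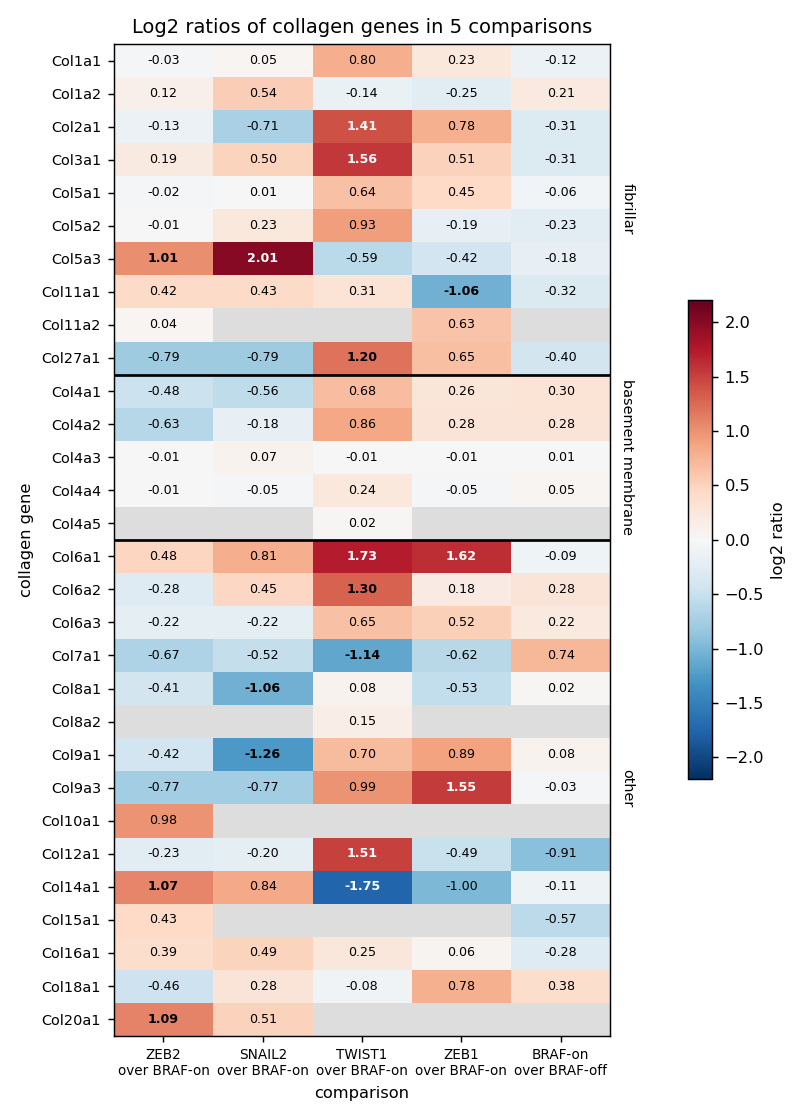
Log2 ratio (colour and number) of each collagen gene that entered at least 1 of 5 comparisons, in rows by class, with comparisons in columns. Grey cells had both arrays under the floor, bold numbers are at least 2-fold, and the TWIST1 column holds the most of them, with 6 higher and 2 lower.

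The array labelled TWIST1 differed from BRAF-on by 2-fold or more for 8 collagen genes, with 6 higher and 2 lower. Col6a1, a chain of the beaded filament collagen type VI, was 3.33-fold higher, Col3a1, the chain of the fibrillar collagen type III, 2.95-fold, Col12a1, a fibril-associated collagen, 2.84-fold, Col2a1, the chain of the cartilage collagen type II, 2.65-fold, Col6a2 2.47-fold and Col27a1 2.30-fold. Col14a1, another fibril-associated collagen, was 3.36-fold lower and Col7a1, the chain of the anchoring fibrils under basement membranes, 2.21-fold lower. Of the 42 collagen genes 26 entered this comparison, 20 of them (76.9%) with a ratio above 1, however small, against 50.4% of all genes entered. The 6 higher ones are 23.1% of those entered, against 2.03% of all 11334 genes entered, and the 2 lower ones are 7.69%, against 2.02%. Over the 21 collagen genes whose mean over the 6 arrays reached the floor, a choice that does not depend on which array is high, the median log2 ratio was 0.70, against 0.00195 over 10762 genes chosen likewise, and 16 of the 21 lay above 0. In bulk RNA such as this, fewer cells of a type and less RNA per cell cannot be told apart. Markers of fibroblasts moved with these genes: of 12 markers, 8 entered and 5 were at least 2-fold higher (Fap, Postn, Dcn, Pdgfrb and Twist2), with a summed signal of 8882 on the array labelled TWIST1 against 3129.7 in BRAF-on. Pdgfrb, the brightest of that list, was at 4960 against 1948 and so weighs most in the sum. Lum, Dpt, Mfap5 and Prrx1 of the list were under the floor on all 6 arrays. Of the Schwann cell markers 4 entered and 1 was at least 2-fold higher, Pmp22, at 1310 against 232 in BRAF-on. Cnp, Mbp and S100b were within 2-fold. Melanocyte markers had a summed signal of 2388 on the array labelled TWIST1 against 67988 in BRAF-on. The part of these markers in the collagen result was not tested.

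The array labelled ZEB1 had 2 collagen genes at least 2-fold higher than BRAF-on and 1 lower. Col6a1 was 3.08-fold higher and Col9a3, a chain of the fibril-associated collagen type IX, 2.92-fold higher, while Col11a1, a chain of the fibrillar collagen type XI, was 2.08-fold lower. Of 25 collagen genes entered, 8% were higher, against 4.49% of all 11614 genes entered, and 4% were lower, against 3.93%, so the lower share is near that of all genes and 2 genes carry the higher one. The median over the 21 collagen genes was 0.23 on the log2 scale, against 0.06 over all genes chosen likewise. Fibroblast markers had 3 of 7 entered members at least 2-fold higher (Fap, Pdgfra and Pdgfrb) and a summed signal of 5629.5 against 3129.7 in BRAF-on. Pdgfrb, the brightest of them, was at 3997 against 1948 and so weighs most in that sum. Pdgfra entered only through the array labelled ZEB1, at 136 against 35.5. Melanocyte markers had a summed signal of 26768 against 67988 in BRAF-on. The part of either list in the collagen values was not tested.

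On the array labelled SNAIL2 the collagen genes went both ways. Col5a3, a less widespread chain of the fibrillar collagen type V, was 4.02-fold higher than in BRAF-on, Col9a1, the partner chain of Col9a3, 2.40-fold lower and Col8a1, a chain of the short network-forming collagen type VIII, 2.09-fold lower. The 1 higher gene is 4% of 25 entered, against 5.61% of all 11416 genes entered, and the 2 lower ones are 8%, against 6.42%. Both shares are near those of all genes, and the median over the 21 collagen genes, 0.05, lay beside 0.07 for all genes.

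The array labelled ZEB2 had 3 collagen genes at least 2-fold higher than BRAF-on, all close to that size, and none lower. Col20a1 was at least 2.13-fold higher, and Col14a1 and Col5a3 passed 2-fold with log2 ratios of 1.07 and 1.01. They are 10.7% of 28 entered, against 1.76% of all 11322 genes entered, and no collagen gene was lower, against 0.583% of all genes. The median over the 21 collagen genes was -0.13, with 14 of them below 0, against -0.00167 for all genes. None of the 3 calls held under every other processing tried.

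BRAF activation without an added factor came with no collagen gene at least 2-fold apart, with 25 entered in BRAF-on over BRAF-off. Of all 11200 genes entered 1.04% were that much higher and 0.384% that much lower. The largest ratios were those of Col12a1, at a log2 ratio of -0.91, and Col7a1, at 0.74. A second Col12a1 probe set went the other way, at 0.57. Of 9 fibrillar collagens entered 8 lay below 0, from -0.40 to -0.06, with Col1a2 at 0.21. Of all genes entered 49.7% lay above 0. The type IV chains Col4a1 and Col4a2 were at 0.30 and 0.28, and a second Col4a1 probe set gave -0.13. Col4a3 (0.01) and Col4a4 (0.05) were bounded by the floor. Both entered only through BRAF-on, so their ratios could not lie below 0. The 6 arrays include none of cells that had tamoxifen but lacked the construct, so the drug's own effect and BRAF activation cannot be told apart. Melanocyte markers were lower in BRAF-on than in BRAF-off for 10 of 10 (summed signal 67988 against 93829), and their part in these values was not tested.

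**Figure D2:**
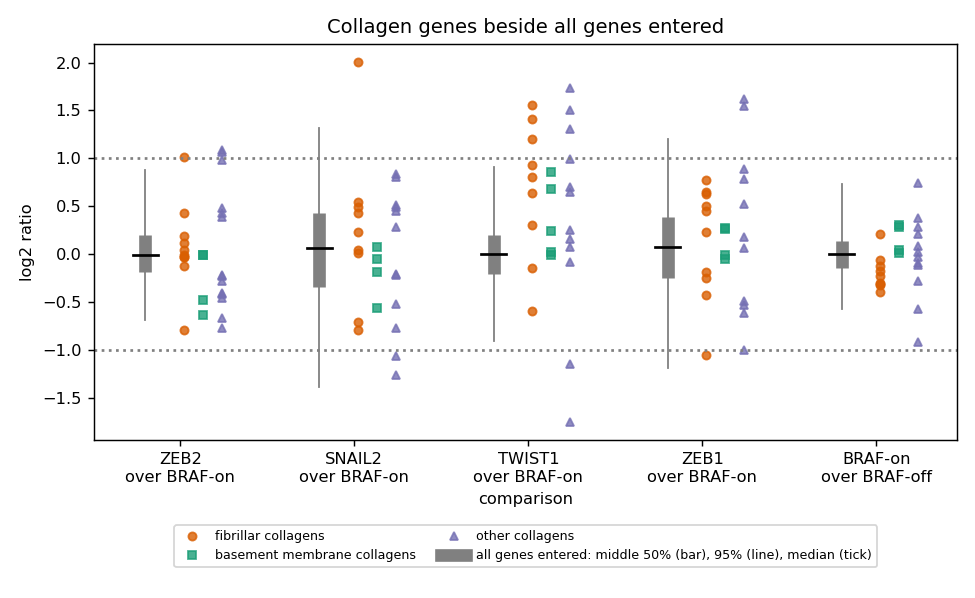
Log2 ratios (vertical axis) in the 5 comparisons, for fibrillar (circles), basement membrane (squares) and other collagens (triangles) beside the spread of all genes entered (bar: middle 50%, line: middle 95%, tick: median). Dotted lines mark 2-fold. With TWIST1 most collagens lie above the bar of all genes, and with SNAIL2 and ZEB1 the spread of all genes is itself wide.

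Of 9 fibrillar collagens entered with TWIST1, 3 (33.3%) were at least 2-fold higher, against 2.03% of all genes entered. Ratios above 1 were found for 7 of the 9, against 50.4% of all genes. SNAIL2 likewise had 7 of 9 entered with ratios above 1, against 54.5% of all genes. Over the 9 fibrillar genes whose mean over the 6 arrays reached the floor, the median log2 ratio was 0.80 with TWIST1, -0.00596 with ZEB2, 0.23 with SNAIL2, 0.23 with ZEB1 and -0.23 in BRAF-on over BRAF-off. Among them, Col3a1 showed the largest ratio on the array labelled TWIST1. Its signal was 3259 with ZEB2, 4021 with SNAIL2, 8396 with TWIST1 and 4044 with ZEB1, against 2849.8 in BRAF-on and 3525 in BRAF-off. The array labelled TWIST1 thus stood well above the other 5, of which the highest was at 4044. A second Col3a1 probe set was at 1079 with TWIST1 against 347 in BRAF-on, 3.11-fold higher. Against BRAF-off the log2 ratio with TWIST1 was 1.25. Type III forms the thin fibres found beside type I in skin and vessels.

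The 250 bases before the annotated start of Col3a1 are shown because this gene led the fibrillar class and because its window holds 4 E-boxes (CANNTG, the hexamer that basic helix-loop-helix proteins such as TWIST1 bind; capitals mark each match). It lies at chr1:45311288-45311537 on the plus strand of GRCm38.p6, as in RefSeq, and 3.84% of all 32851 promoter windows of the same length hold 4 or more. The windows of Col5a3, Col6a1 and Col8a1, genes that stood apart with SNAIL2, TWIST1, ZEB1 or ZEB2, are set beside it in the same notation. They lie on the minus strand at chr9:20815068-20815317, chr10:76726045-76726294 and chr16:57754738-57754987. Each is printed from 5' to 3' in the direction of its gene.
Col3a1: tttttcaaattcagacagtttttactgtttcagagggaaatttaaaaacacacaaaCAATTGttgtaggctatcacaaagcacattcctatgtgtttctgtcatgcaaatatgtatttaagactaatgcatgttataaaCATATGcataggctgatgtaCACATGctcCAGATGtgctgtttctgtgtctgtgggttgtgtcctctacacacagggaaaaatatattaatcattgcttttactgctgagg
Col5a3: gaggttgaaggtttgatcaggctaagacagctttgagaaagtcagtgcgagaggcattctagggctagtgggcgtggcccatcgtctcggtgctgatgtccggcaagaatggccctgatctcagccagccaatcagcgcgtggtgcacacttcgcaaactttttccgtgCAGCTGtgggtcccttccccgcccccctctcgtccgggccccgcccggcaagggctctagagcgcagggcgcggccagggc
Col6a1: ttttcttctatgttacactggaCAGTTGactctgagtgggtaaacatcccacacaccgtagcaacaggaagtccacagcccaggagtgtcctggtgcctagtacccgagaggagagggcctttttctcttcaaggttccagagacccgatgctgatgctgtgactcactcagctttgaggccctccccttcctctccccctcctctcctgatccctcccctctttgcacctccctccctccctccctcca
Col8a1: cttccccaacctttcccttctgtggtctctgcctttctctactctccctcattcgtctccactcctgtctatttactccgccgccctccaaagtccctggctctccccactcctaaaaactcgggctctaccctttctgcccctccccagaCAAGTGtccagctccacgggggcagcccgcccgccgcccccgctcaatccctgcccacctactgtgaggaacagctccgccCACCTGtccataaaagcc

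In Col3a1 the matches lie at positions -194, -111, -91 and -82 relative to the start site and none is CAGGTG or its reverse complement CACCTG, the form of E-box that ZEB and SNAIL proteins bind. Col5a3 has 1 E-box, at -81, and Col6a1 has 1, at -228. Col8a1 has 2, of which CACCTG lies at -18. Windows were found for 33 of the 42 collagen genes, 36 in all. CAGGTG or CACCTG, which are also CANNTG, occurred in 4 of the 36 (11.1%), those of Col4a4, Col6a5, Col8a1 and Col16a1, against 17.2% of all windows. CANNTG on its own, which reads the same on both strands, occurred in 18 of the 36 (50%), against 66.2% of all windows. A match is a description of these letters and not a binding site.

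The type I chains were less uniform. Col1a1 was at 3069.6 with ZEB2, 3243 with SNAIL2, 5485 with TWIST1 and 3673 with ZEB1, against 3141 in BRAF-on and 3414 in BRAF-off, a log2 ratio of 0.80 for TWIST1 over BRAF-on. Its second probe set gave 0.94. Col1a2, which encodes the partner chain of Col1a1 in type I collagen, was at 175 with ZEB2, 235 with SNAIL2, 146 with TWIST1 and 135 with ZEB1, against 161 in BRAF-on and 139 in BRAF-off. It was highest on the array labelled SNAIL2 (log2 ratio 0.54) and slightly lower with TWIST1 than in BRAF-on (-0.14), so the 2 chains of type I did not go the same way there.

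Type V collagen is built into type I fibres and limits their width. Col5a1, its most widespread chain, was at 3837 with ZEB2, 3925 with SNAIL2, 6089 with TWIST1 and 5319.7 with ZEB1, against 3904 in BRAF-on and 4062 in BRAF-off. The arrays labelled TWIST1 and ZEB1 were above the other 4, which lay close together. The log2 ratio for TWIST1 over BRAF-on was 0.64, and the other 2 probe sets of the gene gave 0.58 and 1.08. Col5a2, the usual partner of Col5a1, was at 76.9 with ZEB2, 90.8 with SNAIL2, 147 with TWIST1 and 67.9 with ZEB1, against 77.2 in BRAF-on and 90.5 in BRAF-off, all near the floor but the TWIST1 one (log2 ratio 0.93).

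Col5a3 went the other way. Its signal was 290.4 with ZEB2, 577 with SNAIL2, 95.3 with TWIST1 and 107 with ZEB1, against 144 in BRAF-on and 163 in BRAF-off. The arrays labelled SNAIL2 and ZEB2 were above the BRAF arrays and those labelled TWIST1 and ZEB1 below them. Against BRAF-off the log2 ratio was 0.84 for ZEB2, 1.83 for SNAIL2, -0.77 for TWIST1 and -0.60 for ZEB1. The other probe set of Col5a3 was under the floor on all arrays. Melanocyte markers had a summed signal of 147797 with SNAIL2 and 120619 with ZEB2, against 67988 in BRAF-on, with 8 and 5 of 10 markers at least 2-fold higher, and 26768 with ZEB1 and 2388 with TWIST1, with 9 markers lower in each. Of all genes entered 5.61% were higher with SNAIL2 and 1.76% with ZEB2, and 3.93% were lower with ZEB1 and 2.02% with TWIST1. From high to low, SNAIL2, ZEB2, BRAF-off, BRAF-on, ZEB1 and TWIST1 had the same order by Col5a3 signal and by this sum. The protease gene Mmp2 had this order too, and whether any of these are related was not tested. How many of all genes share the order was not counted, and it was looked at with the values known.

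Col2a1 and Col27a1, which are best known from cartilage, were both higher with TWIST1. Col2a1 was at 249.6 with ZEB2, 167 with SNAIL2, 723 with TWIST1 and 467 with ZEB1, against 273 in BRAF-on and 337 in BRAF-off. TWIST1 and ZEB1 were thus above both BRAF arrays and SNAIL2 below them, and the TWIST1 ratio remained past 2-fold against BRAF-off. Col27a1 was at 123 with ZEB2, 123 with SNAIL2, 488 with TWIST1 and 335 with ZEB1, against 213 in BRAF-on and 281 in BRAF-off. It was 2.30-fold higher with TWIST1 than in BRAF-on, its log2 ratio against BRAF-off was 0.80, and its second probe set gave 0.27 against BRAF-on, at 233 with TWIST1 against 193.

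Col11a1 pairs with Col11a2 in type XI, the cartilage counterpart of type V. Col11a1 was at 514 with ZEB2, 515 with SNAIL2, 474 with TWIST1 and 184 with ZEB1, against 383 in BRAF-on and 478 in BRAF-off. Only the array labelled ZEB1 was low, and there the second probe set was at 170.4 against 307 in BRAF-on, 1.80-fold lower. Against BRAF-off the ZEB1 log2 ratio was -1.38. Col11a2 reached the floor with ZEB2 (65.7) and ZEB1 (98.7) and was at 36.8 in BRAF-on.

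**Figure D3:**
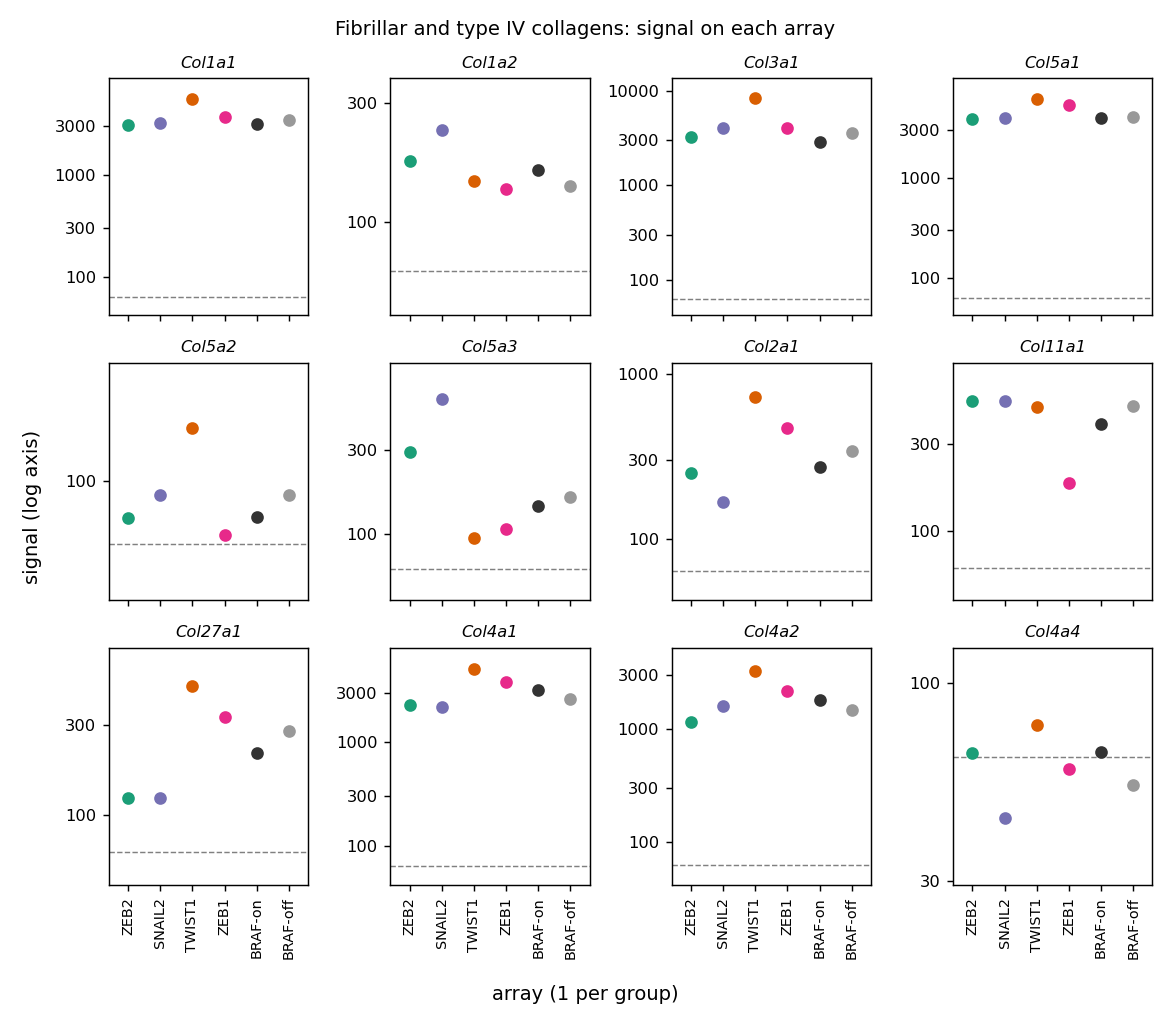
Signal of 9 fibrillar and 3 type IV chains on each of the 6 arrays, 1 point per array, on a log axis whose range differs between panels. The dashed line is the floor of 63.7. TWIST1 (orange) is the highest point for Col1a1, Col3a1, Col5a1, Col5a2, Col2a1, Col27a1, Col4a1 and Col4a2, and SNAIL2 (purple) for Col5a3, Col1a2 and, level with ZEB2, Col11a1.

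The basement membrane chains Col4a1 and Col4a2, which together form the common type IV net, differed between arrays in much the same way. No type IV chain was at least 2-fold apart in any of the 5 comparisons. With ZEB2 over BRAF-on the log2 ratios were -0.48 for Col4a1 and -0.63 for Col4a2. Col4a3 (-0.00732) and Col4a4 (-0.0093) were level with BRAF-on, at signals near or under the floor. Col4a3 entered there only through BRAF-on, so its ratio could not lie above 0. Col4a1 was at 2291 with ZEB2, 2166 with SNAIL2, 5106 with TWIST1 and 3831 with ZEB1, against 3196 in BRAF-on and 2595 in BRAF-off. Col4a2 was at 1167 with ZEB2, 1591 with SNAIL2, 3276 with TWIST1 and 2189 with ZEB1, against 1807 in BRAF-on and 1486 in BRAF-off. For both genes TWIST1 was highest, followed by ZEB1 and then BRAF-on, and ZEB2 and SNAIL2 were below BRAF-on. Neither chain reached 2-fold against BRAF-on (log2 ratios 0.68 and 0.86 with TWIST1), while against BRAF-off the TWIST1 ratios were 0.98 and 1.14, so that Col4a2 passed 2-fold there. A second Col4a1 probe set gave 0.44 with TWIST1 and 0.65 with ZEB1 over BRAF-on. The genes are transcribed in opposite directions from start sites 21 bases apart in the RefSeq annotation of GRCm38.p6, and neither 250-base window holds an E-box.

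The other type IV chains, which replace Col4a1 and Col4a2 in kidney, lung and other specialised membranes, were near or under the floor. Col4a3 ran from 16.6 to 67.3. Col4a4 ran from 44 to 77.7, with its highest value on the array labelled TWIST1. Col4a5 ran from 25.2 in BRAF-on to 64.8 with TWIST1, and Col4a6 stayed under 34. No ratio of these 4 reached 2-fold once values were raised to the floor.

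Type VI collagen forms beaded filaments around cells from 3 chains encoded by Col6a1, Col6a2 and Col6a3. Col6a1 was at 131 with ZEB2, 164 with SNAIL2, 313 with TWIST1 and 289.5 with ZEB1, against 93.9 in BRAF-on and 99.9 in BRAF-off. Col6a2 was at 56.1 with ZEB2, 106 with SNAIL2, 191 with TWIST1 and 87.5 with ZEB1, against 77.4 in BRAF-on and 12.6 in BRAF-off. Col6a3 was at 54.3 with ZEB2, 57.5 with SNAIL2, 116 with TWIST1 and 106 with ZEB1, against 74 in BRAF-on and 23.2 in BRAF-off. By these probe sets all 3 chains were highest with TWIST1, and Col6a1 and Col6a3 were next highest with ZEB1. The other Col6a2 probe set was about level with ZEB2 (101), TWIST1 (102) and ZEB1 (106), against a BRAF-on signal under the floor. The Col6a2 ratio with TWIST1 missed 2-fold with a floor at the 60th percentile (log2 ratio 0.52) and with the floor as a pseudocount (0.85). Col6a1 kept log2 ratios of 1.64 with TWIST1 and 1.53 with ZEB1 against BRAF-off. Col6a2 and Col6a3 lie close to the floor, and Col6a3 did not reach 2-fold (0.65 with TWIST1 and 0.52 with ZEB1).

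Type IX collagen decorates the surface of type II fibres. Col9a1 was at 4030.2 with ZEB2, 2240.3 with SNAIL2, 8739 with TWIST1 and 9965 with ZEB1, against 5374 in BRAF-on and 5072 in BRAF-off. Col9a3 was at 60.1 with ZEB2, 44.4 with SNAIL2, 216 with TWIST1 and 317 with ZEB1, against 109 in BRAF-on and 111 in BRAF-off. For both chains ZEB1 was highest and TWIST1 next, the BRAF arrays followed, and ZEB2 and SNAIL2 were lowest, both of them under the floor for Col9a3. The second Col9a1 probe set was at 402 with SNAIL2 against 930.0 in BRAF-on (2.32-fold lower) and the second Col9a3 probe set at 252 with ZEB1 against 80.9 in BRAF-on (3.12-fold higher). Col9a2, which encodes the remaining chain of type IX, was under the floor throughout.

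Col12a1 and Col14a1 encode fibril-associated collagens of dermis and tendon. Col12a1 was at 222 with ZEB2, 225 with SNAIL2, 738 with TWIST1 and 185 with ZEB1, against 259.6 in BRAF-on and 489 in BRAF-off. Its BRAF-off signal lay nearer to the TWIST1 one than the BRAF-on signal did, and against BRAF-off the TWIST1 log2 ratio was 0.60, while those with ZEB2, SNAIL2 and ZEB1 were -1.14, -1.12 and -1.40. A second Col12a1 probe set was not higher with TWIST1, at 146 against 155 in BRAF-on, and with the median of all its probe sets the log2 ratio turned to -0.38. Col14a1 was at 462 with ZEB2, 393 with SNAIL2, 65.5 with TWIST1 and 110.4 with ZEB1, against 220.1 in BRAF-on and 238 in BRAF-off. TWIST1 and ZEB1 were below both BRAF arrays, and ZEB2 and SNAIL2 above them. The ZEB1 ratio, 1.99-fold lower, was just short of 2-fold. A second, dimmer Col14a1 probe set gave log2 ratios of -0.40 with TWIST1 and 0.05 with ZEB2. Col16a1, of the same class, was at 1346 to 1887 and no ratio reached 2-fold.

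Col8a1, a chain of a network found under endothelium and cornea, was at 5281 with ZEB2, 3356 with SNAIL2, 7394 with TWIST1 and 4840.4 with ZEB1, against 7005 in BRAF-on and 6891 in BRAF-off. The array labelled SNAIL2 was the lowest, and a second probe set was at 1594 there against 3196 in BRAF-on. Its partner Col8a2 reached the floor only with TWIST1 (70.9). Col7a1 was at 225 with ZEB2, 250.4 with SNAIL2, 162 with TWIST1 and 234 with ZEB1, against 358 in BRAF-on and 215 in BRAF-off. BRAF-on was thus the highest of the 6. Against BRAF-off the TWIST1 log2 ratio was -0.41, not the -1.14 seen against BRAF-on. Col18a1, a multiplexin of basement membranes whose end fragment is endostatin, was at 279 with ZEB2, 467 with SNAIL2, 363 with TWIST1 and 658 with ZEB1, against 383 in BRAF-on and 294 in BRAF-off. With ZEB1 its log2 ratio was 0.78 over BRAF-on and 1.16 over BRAF-off, and its second probe set gave 1.52 over BRAF-on. Col15a1, the other multiplexin, reached the floor with ZEB2 (85.8) and in BRAF-off (94.8) and was at 44.3 in BRAF-on.

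**Figure D4:**
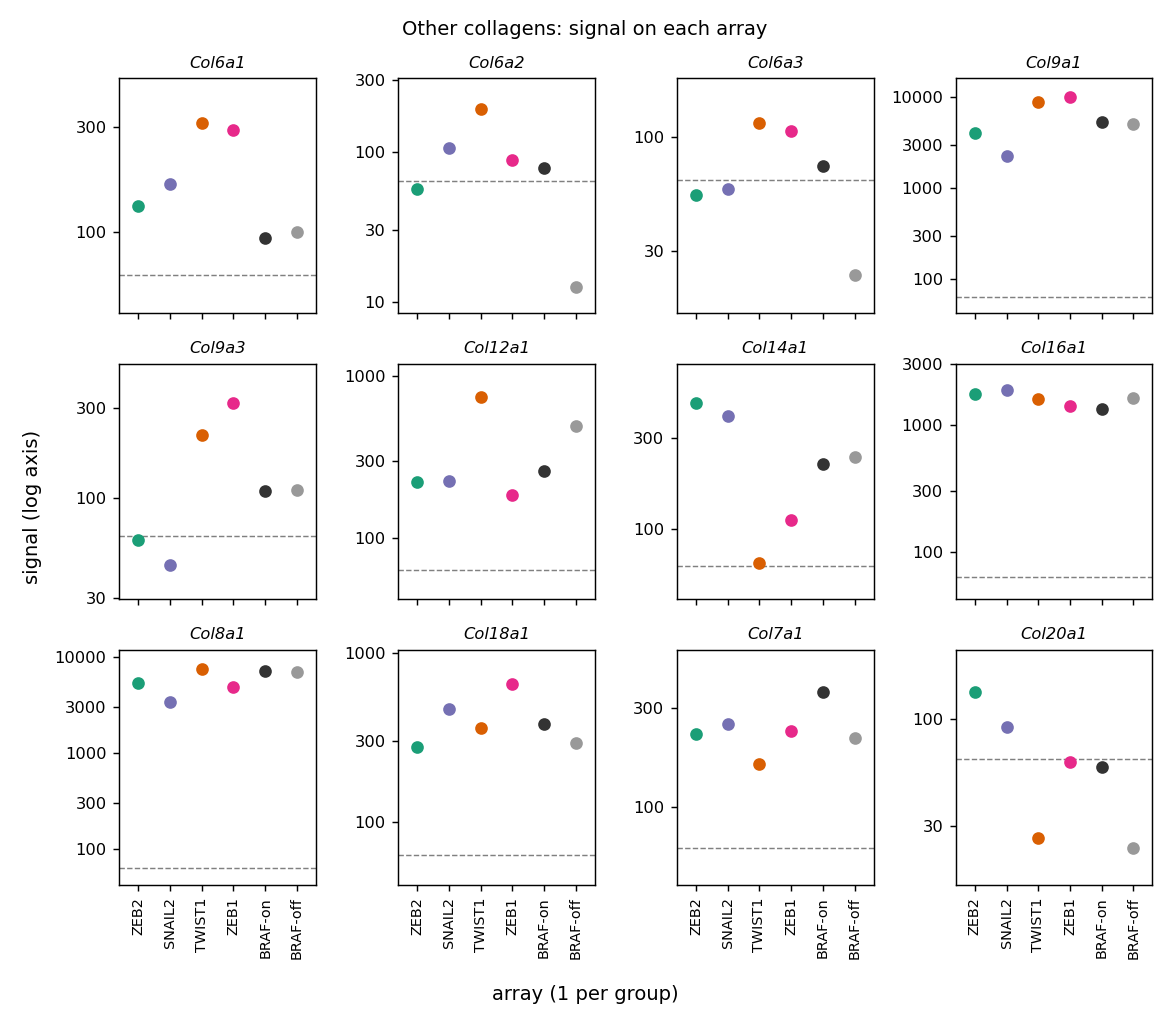
Signal of 12 collagens other than the fibrillar and type IV chains on each of the 6 arrays, 1 point per array, on a log axis whose range differs between panels. The dashed line is the floor of 63.7. The 3 type VI chains are highest with TWIST1, Col9a1 and Col9a3 are highest with ZEB1 and lowest with SNAIL2, and Col14a1 is lowest with TWIST1.

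Other probe sets of the same gene could be set beside 11 of the 17 ratios that reached 2-fold. Of 13 such probe sets 12 had the same sign and 4 were at least 2-fold apart themselves, those of Col3a1 with TWIST1, Col8a1 and Col9a1 with SNAIL2 and Col9a3 with ZEB1. The one of opposite sign was that of Col12a1 with TWIST1. Smaller ratios came from other probe sets of Col6a2, Col8a1, Col11a1, Col14a1, Col20a1 and Col27a1. Col2a1, Col5a3, Col6a1 and Col7a1 had no other probe set that entered.

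**Figure D5:**
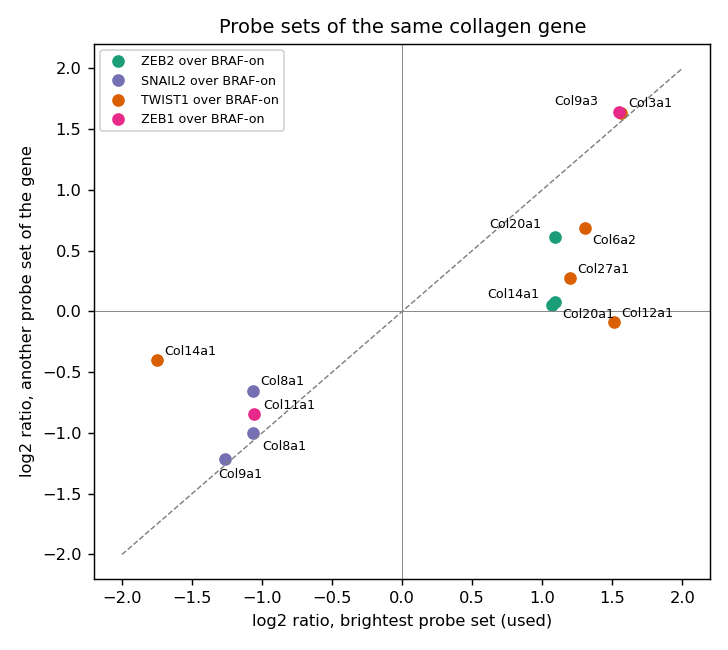
Log2 ratio of the brightest probe set of a gene (horizontal axis) against that of each other entered probe set (vertical axis), for the ratios that reached 2-fold. Colours give the comparison and the dashed line marks equal values. Col3a1, Col9a1, Col9a3, Col11a1 and the brighter other probe set of Col8a1 lie near the line, and Col6a2, Col12a1, Col14a1, Col20a1 and Col27a1 lie off it.

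The enzymes and chaperones that make collagen inside the cell varied less than the chains. Of 20 listed genes 19 had a probe set and 15 or 16 entered each comparison. None was at least 2-fold apart with TWIST1, where 14 of the 15 chosen by their mean over the arrays had ratios above 1, against 50.3% of all genes chosen likewise. Their median was 0.30 on the log2 scale, against 0.00195 for all genes. The largest ratios were those of the prolyl 3-hydroxylase gene P3h1 (0.93) and the lysyl hydroxylase gene Plod3 (0.79). P4ha1, a subunit of prolyl 4-hydroxylase, was at 3991 with TWIST1 against 2792 in BRAF-on. Serpinh1, the collagen chaperone HSP47, ran only from 14939 to 16994 over the 6 arrays. With SNAIL2 P3h3, another prolyl 3-hydroxylase gene, was higher, at 139 against a BRAF-on signal under the floor. Its log2 ratio was at least 1.12, and Plod1 was at 0.96. Of the 15 genes chosen by their mean over the arrays, 13 had ratios above 1 with SNAIL2, against 54.4% of all genes chosen likewise. Their median was 0.16 on the log2 scale, against 0.07 for all genes. With ZEB1 no member was 2-fold apart, and Plod1 (0.90) and P3h2 (-0.79) had the largest ratios. With ZEB2 the largest was that of the peptidyl-prolyl isomerase gene Fkbp14 (0.63), and in BRAF-on over BRAF-off those of Fkbp14 (-0.55) and P4ha2 (0.52).

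Of the enzymes and helpers that act on collagen outside the cell, 12 of 15 had a probe set and 7 or 8 entered. Lox, the lysyl oxidase that crosslinks fibres, was at 711 with ZEB2, 577 with SNAIL2, 1899 with TWIST1 and 869 with ZEB1, against 635 in BRAF-on and 995 in BRAF-off. It was the only member at least 2-fold apart in any comparison, with a log2 ratio of 1.58 for TWIST1 over BRAF-on. All 7 members entered lay above 0 with ZEB1, where 56.7% of all genes did. Their median log2 ratio was 0.45, against 0.07 for all genes, led by Bmp1, the proteinase that trims the C-terminal ends of procollagen (0.70), and Loxl1 (0.54). With TWIST1 all 7 members chosen by their mean over the arrays lay above 0 as well, with a median of 0.25. Of all genes chosen likewise 50.3% did. Pcolce2 entered only through the array labelled TWIST1 (63.8, against 34.4 in BRAF-on), so its ratio could not lie below 0 on the log2 scale. With SNAIL2 Loxl3 (0.54) and Bmp1 (-0.36) had the largest ratios, with ZEB2 Loxl1 (-0.30) and Loxl3 (0.22), and in BRAF-on over BRAF-off Lox (-0.65) and Loxl3 (-0.29).

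Among 10 collagen receptors 9 had a probe set and 5 or 6 entered. Ddr2, a receptor kinase for fibrillar collagens, was at 762 with ZEB2, 981 with SNAIL2, 3307 with TWIST1 and 721 with ZEB1, against 704 in BRAF-on and 795 in BRAF-off, so that the array labelled TWIST1 stood alone. Mrc2, an endocytic collagen receptor, was at 226 with TWIST1 against 35.8 in BRAF-on, a log2 ratio of at least 1.83. Itga1, the collagen-binding subunit of the α1β1 integrin, was at 742 with ZEB2 and 925 with SNAIL2, against 340.2 in BRAF-on, log2 ratios of 1.12 and 1.44. Itga10, a collagen-binding integrin chain of cartilage, was at 241 with ZEB1 against 102 in BRAF-on, a log2 ratio of 1.23. In BRAF-on over BRAF-off no receptor was 2-fold apart, with Itga1 at -0.64 and Itgb1 at 0.33.

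Proteases that cut collagen had members at least 2-fold apart in every comparison, and all 8 listed had a probe set. Mmp13, a collagenase, was at 373 with ZEB2, 261 with SNAIL2, 1137 with TWIST1 and 7843 with ZEB1, against 683 in BRAF-on and 86.1 in BRAF-off. The related Mmp1a was at 433 with ZEB2, 170.1 with SNAIL2, 2313 with TWIST1 and 2628 with ZEB1, against 946 in BRAF-on and 10.1 in BRAF-off. BRAF-on thus exceeded BRAF-off for both genes, and both were above BRAF-on with TWIST1 and ZEB1 and below it with ZEB2 and SNAIL2. The Mmp13 ratio with TWIST1 (1.66-fold) and that with ZEB2 (1.83-fold lower) did not reach 2-fold. Mmp1b was at 205 with TWIST1 against 73.3 in BRAF-on. Mmp2, which cuts type IV collagen and denatured collagen, went the other way, at 1788 with ZEB2, 2329.5 with SNAIL2, 235 with TWIST1 and 405 with ZEB1, against 744 in BRAF-on and 937 in BRAF-off.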

How the data were processed

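From each culture 100 ng of total RNA was amplified by in vitro transcription from the 3' end, biotin-labelled and read on 1 Affymetrix mouse array, per the labels' protocols. The authors deposited linear signal intensities; per the submitters' processing notes these come from MAS5 and Affymetrix Expression Console 1.1. A trimmed mean that leaves out the top and bottom 2% is equal on all arrays. The platform annotation pairs 34945 of 45101 probe sets with a single symbol, and others (932 with several, 9160 with none, 64 controls) were left out. Symbols were updated through Entrez numbers (RefSeq, GRCm38.p6). The 82 collagen probe sets gave 42 genes, each represented by its probe set of highest mean log2 signal. The floor, the 50th percentile of all values, was applied before log2. Named are all fibrillar and type IV chains, other collagens at the floor on all arrays or 2-fold apart anywhere, their partner chains, and from each pathway list the members 2-fold apart or else the top 2. P4ha1, Serpinh1, Plod1 with SNAIL2, Col10a1, Col15a1 and markers were named after their values were seen. Members and lists were chosen with earlier results of these data known. Counting was tested on simulated arrays. The comparisons of the 4 added factors share the BRAF-on array. Python 3.11.15, numpy 2.4.6, pandas 2.3.3 and matplotlib 3.10.9 were used.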

Additional observations from a re-analysis of the deposited data

How the results depend on the processing

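No paired analysis was possible because each group has 1 array and no test was run. Of the 17 ratios at least 2-fold, all 17 kept their direction and size class with quantile normalization and without a floor. With centring 16 did (Col5a3 with ZEB2 at 0.99), with a floor at the 60th percentile (133) 14, with the floor as a pseudocount 10 and with BRAF-off in place of BRAF-on 12. Taking each gene's median over its probe sets, 9 of 15 did and Col12a1 with TWIST1 turned to -0.38. Col5a3 with SNAIL2 and with ZEB2 did not enter in that setting, as its other probe set was at 2.77 and 5.74 there. Without probe sets that match several transcripts 13 of 15 did, and Col14a1 then missed 2-fold with ZEB2 (0.0548) and TWIST1 (-0.40) and passed it with SNAIL2 (1.15). The cause was not tested. Without a floor, where dim values are compared as they are, 10 collagen genes were higher and 1 lower with ZEB2, 6 and 4 with SNAIL2, 12 and 7 with TWIST1, 10 and 2 with ZEB1, and 11 and 2 in BRAF-on over BRAF-off, so counts that include dim genes are set by the floor. Against BRAF-off, 1 was higher and 2 lower with ZEB2, 5 lower with SNAIL2, 1 lower with TWIST1 and 3 lower with ZEB1. With ZEB2, 1 was higher with the pseudocount and 0 with the probe set median, and with SNAIL2, 2 were higher without the multiple-transcript probe sets. With TWIST1, 1 was lower with the 60th percentile floor, the pseudocount, the probe set median and without multiple-transcript probe sets. With ZEB1, 2 were lower with quantile normalization and with centring, and 0 with the pseudocount and with the probe set median. The median log2 ratio of all genes stayed under 0.1 in size in each setting.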

Other observations

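A pair of dim collagen genes had their highest signal on the array labelled ZEB2. Col20a1, a fibril-associated collagen, was at 136 with ZEB2, 90.8 with SNAIL2, 26.1 with TWIST1 and 61.6 with ZEB1, against 57.9 in BRAF-on and 23.4 in BRAF-off. A second probe set of Col20a1 was at 97.4 with ZEB2, 69.9 with SNAIL2, 17.4 with TWIST1 and 69.8 with ZEB1, against 28.4 in BRAF-on, and another at 67.2 with ZEB2 and 66.9 with SNAIL2, against 20.0 in BRAF-on. These 3 probe sets were higher with ZEB2 and SNAIL2 than in BRAF-on, at signals near the floor of 63.7, and the remaining probe set of the gene was under the floor on all arrays (1.45 with ZEB2 and 2.05 with SNAIL2, against 5.14 in BRAF-on). Col10a1, the type X chain of growth plate cartilage, was at 126 with ZEB2 and under the floor on the other 5 arrays, with 20.8 in BRAF-on, and its ratio, bounded by the floor, was a log2 of 0.98.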
